A study of Paspalum vaginatum with 72 samples.

Results

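The first leaf response of the salt-tolerant accession USA17-18 of seashore paspalum (Paspalum vaginatum, a C4 turfgrass of saline coasts) was read from 6 of the 72 RNA-seq libraries of the series: 3 from leaves after 8 h of salt and 3 from control leaves, taken by their labels. The salt group carries the treatment 400 mM NaCl and the time 8 h in the labels, and the control group water and the time 0 h. The series' design text speaks of plants 2 months old, while the methods describe younger hydroponic plants brought to 400 mM in daily steps and harvested on day 5, so the concentration reached at 8 h and the age of the plants are not settled by the sources used here. The hour of collection is not given for either group, and time of day cannot be told apart from salt. The sensitive accession USA17-26 was sampled in the same way, and its 3 control and 3 salt leaf libraries at 8 h serve to show where the tolerant response differs. No allele, transgene or agent other than NaCl is named in the labels. The p-values of the tolerant comparison rest on the spread within 6 groups of 3 tolerant leaf libraries, the 12 h group among them. Those of the sensitive comparison and of the difference rest on the spread within the groups of all 36 leaf libraries.

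Salt reaches leaf cells first as a water deficit and later as an excess of sodium and chloride. The hormone abscisic acid, made by cleavage of carotenoids, then raises genes for protective hydrophilic proteins (late embryogenesis abundant proteins and dehydrins), for the solute proline and for transcription factors, and closes stomata. A C4 leaf fixes carbon with phosphoenolpyruvate carboxylase in mesophyll cells and again with Rubisco in bundle sheath cells, and the nuclear genes of its photosystems are among its most abundant transcripts. Gene names used here are those of the closest Swiss-Prot protein in the deposited annotation, mostly from rice, maize, barley or Arabidopsis, and roles are those known in such species.

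Library 8 h replicate 1 and control replicate 1 stood apart from the rest of their groups. In the tolerant leaf library of 8 h replicate 1, 10 of 18 sensitive-type marker genes (genes found in roots of the sensitive accession and near 0 in roots of the tolerant one) reached 1 FPKM (fragments per kilobase of transcript, scaled to library size), against 1 gene in each of replicates 2 and 3 and 6, 0 and 5 genes in the 3 controls. The median level of the 13 markers that sensitive leaves express was 43.0% of the sensitive leaf level in replicate 1, 3.01% in replicate 2 and 2.38% in replicate 3, and 6.65%, 0% and 7.26% in the control leaves. The median of tolerant-type genes was 39.7% of the tolerant leaf level in replicate 1 of the 8 h leaves and 97.1% to 118% in the other 5 libraries. Single genes were not lowered alike in that replicate. Genes emOS55.1612 and emOS173.60 were at 0, against 35.43 to 54.22 and 17.57 to 34.24 FPKM in the other 5. Genes emOS55.1389 and emOS94.70 were at 11.07 and 7.28 FPKM, against 11.08 to 14.15 and 6.01 to 7.13 FPKM. Of the 3 sensitive-type genes with the highest level in sensitive roots, emOS146.199 was listed at 0 in all 6 libraries and emFS5.416 (tryptophan synthase alpha chain) at 0.12 FPKM in 8 h replicate 1 and at 0 in the rest, against 85.65 to 139.53 and 33.67 to 48.78 FPKM in the 6 sensitive leaf libraries, while emFS12.202 was at 0 in the 6 tolerant and under 1 FPKM in the 6 sensitive libraries. So the library labelled 8 h replicate 1 carries part of the markers of each type and lacks others, and results are given with and without it. In the control group, replicate 1 correlated with replicates 2 and 3 at r = 0.874 and 0.890 across genes, against 0.986 between those 2, and 158 of the genes that rose with salt were over 5 times higher in it than in both other controls.

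**Figure D1:**
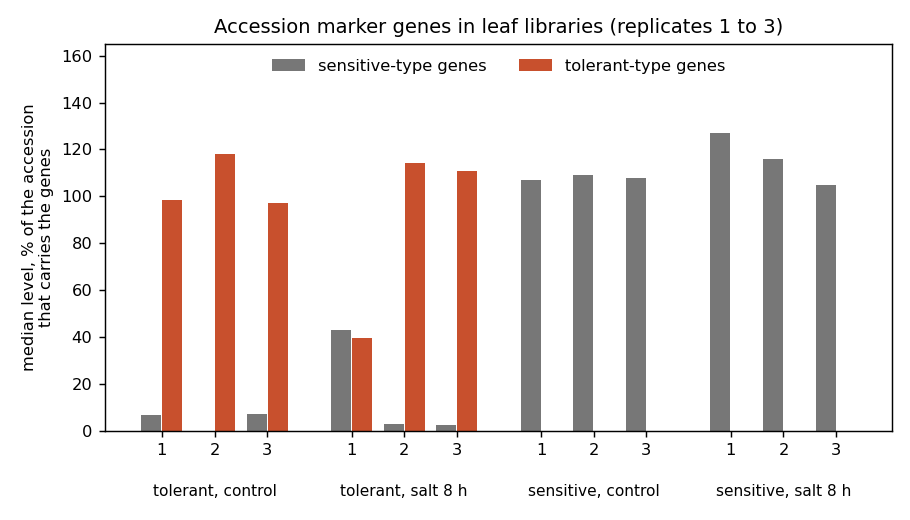
Median level of accession marker genes in 12 leaf libraries (x axis, replicates 1 to 3 of each group), as a percentage of the median leaf level in the accession that carries them (y axis, grey bars sensitive-type genes, orange bars tolerant-type genes). In tolerant 8 h replicate 1 the medians of both kinds lie near 40, at 43.0 and 39.7, while the other tolerant libraries lie at 97.1 to 118 for their own type and at 0 to 7.26 for the other. Single genes of both kinds in that replicate ranged from 0 to about the level of the accession that carries them.

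After 8 h of salt, 2633 of 21864 genes tested in tolerant leaves were differentially expressed (DEGs), 12.0% of all tested, with 1523 higher (6.97%) and 1110 lower (5.08%). DEGs met an adjusted p of 0.05 or less in limma and moved by 1.5 or more in either direction on the log2(FPKM + 1) scale, which understates changes of low genes. Without 8 h replicate 1 there were 2511 DEGs (11.5% of those tested, with 6.61% or 1442 higher and 4.90% or 1069 lower), and 1325 of the 1523 higher and 990 of the 1110 lower genes were called again. Without replicate 1 of both groups there were 2731 (12.6%, with 7.48% higher and 5.09% lower), a fit added after the data were seen. The median log2 fold change over all genes tested was 0.20, against which single values can be read. With median-ratio scaling, which sets that median to 0, 1204 genes were higher (5.52%) and 1379 lower (6.32%) of 2583 (11.8%), so the share of DEGs that were higher moved from 57.8% to 46.6%. Libraries of both groups did not overlap for 51.0% of the genes tested. Relative depth, estimated from the steps of low values, was 0.940 to 0.953 times the series' median in the controls and 1.11 to 1.13 in the salt libraries.

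Most of the tested genes that mark leaves were lower with salt. Of 635 tested genes at least 16 times higher in sensitive control leaves than roots, 375 were lower and 14 higher (59.1% and 2.20%), with a median log2 fold change of -1.94, while of 223 root genes 53 were higher and 9 lower, with a median of 0.59. The mean log2(FPKM + 1) of the leaf genes was 6.02 to 6.73 in the controls and 4.15 to 4.79 at 8 h, and that of the root genes 0.917 to 1.20 and 1.41 to 1.42. A separate list of 16 genes, picked by name as root markers, had 9 to 12 members at 1 FPKM or more in the control leaves and 10 or 11 at 8 h. The list is therefore not specific to roots in these data. Its summed levels were 276 to 310 FPKM in the controls and 93.1, 842 and 103 FPKM at 8 h. Of its 12 tested members 1 was higher and 2 were lower (8.33% and 16.7%, against 6.97% and 5.08% of all genes), with a median of 0.18. The part of tissue makeup in the results was not tested, and in whole leaves fewer cells of a type and less RNA per cell cannot be told apart.

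RCI2A (emOS55.719, a small hydrophobic membrane protein induced by cold and salt in Arabidopsis, chromosome 1, 48126875 to 48134729) stood at 18.14, 1.73 and 0.26 FPKM in the controls and at 1034.63, 881.39 and 1180.15 FPKM at 8 h. Control replicate 1 was the highest of its group and the groups did not overlap (log2 fold change 7.99, SE 0.82, adjusted p = 6.79e-06), and the value was 7.98 without 8 h replicate 1. Dehydrin DHN3 (emFS9.217, chromosome 9) went from 22.37, 1.91 and 0.28 to 616.33, 179.43 and 485.7 FPKM (log2 fold change 6.42, SE 0.82, adjusted p = 3.78e-05). The group 3 late embryogenesis abundant protein emFS1.189 was at 111.84 FPKM in control replicate 1 but at 0.65 and 0.73 in controls 2 and 3, and rose to 369.73, 542.23 and 490.1 FPKM (log2 fold change 6.08, SE 1.14, adjusted p = 0.000785). Late embryogenesis abundant protein 31 (emOS181.40) showed the same split of the controls, at 32.22, 0.36 and 0 FPKM, and reached 189.83 to 270.94 FPKM at 8 h. EMB564 (emOS106.196), a late embryogenesis abundant protein of maize embryos, was listed at 0 in all 3 controls and at 15.76, 6.06 and 13.03 FPKM at 8 h (adjusted p = 4.49e-05). Over the list, 10 of 17 tested members were higher (58.8%) and 2 lower (11.8%), against 6.97% and 5.08% of all genes. The median log2 fold change was 2.16 against 0.20 for all genes, and 11 were higher without 8 h replicate 1. In 8 of the 10 higher members control replicate 1 was over 5 times above both other controls, so the level before salt was not alike in the 3 control libraries. The lower members were both named desiccation-related protein PCC13-62, emOS55.1090 and emFS22.1329, with log2 fold changes of -3.05 and -3.04.

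**Figure D2:**
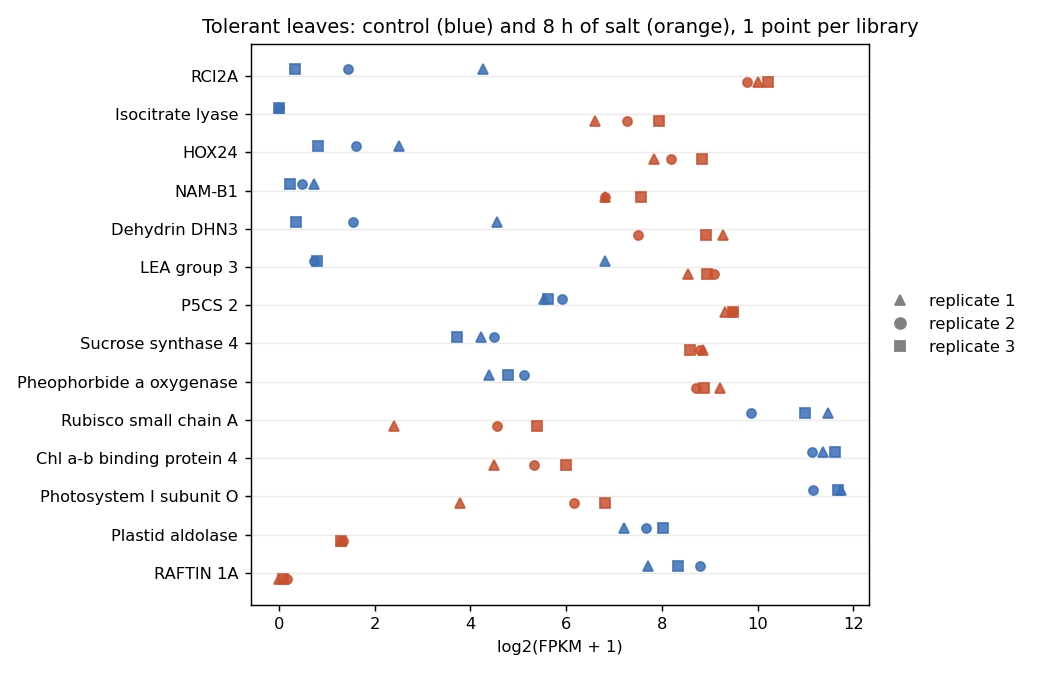
Levels of 14 named genes in tolerant leaves, as log2(FPKM + 1) on the x axis, 1 point per library, control in blue and 8 h of salt in orange, with the symbol giving the replicate. No gene shown has overlapping groups, which the rule for the genes with the largest changes required and which held for 51.0% of all genes tested. RCI2A rises from 0.26 to 18.14 FPKM to 881.39 to 1180.15 FPKM, and RAFTIN 1A falls to 0 to 0.13 FPKM.

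Abscisic acid genes rose in part and fell in part. In the list of its synthesis, breakdown and signalling, 11 of 38 tested members were higher (28.9%) and 2 lower (5.26%), against 6.97% and 5.08% of all genes. The median was 0.69, and the counts were 10 and 2 without 8 h replicate 1. The 2 lower genes were the abundant copies of the synthesis steps. Zeaxanthin epoxidase emOS101.46, which makes the precursor violaxanthin, fell from 252.11, 224.15 and 247.44 to 14.04, 25.16 and 19.26 FPKM (log2 fold change -3.60, SE 0.36, adjusted p = 6.26e-06). The 9-cis-epoxycarotenoid dioxygenase NCED1 (emOS174.323), the cleavage enzyme, fell from 218.19, 725.64 and 472.84 to 40.92, 59.06 and 34.96 FPKM (-3.23, SE 0.62). Less abundant copies went the other way: dioxygenase emOS43.45 rose from 0.46 to 1.48 FPKM in the controls to 9.54, 12.42 and 10.04 FPKM (2.65, SE 0.32), and NCED4 (emFS27.434) from 0.1 to 1.88 to 4.58, 6.3 and 8.15 FPKM (2.08, SE 0.54). These and other genes named outside the top of their list were chosen after their values were seen. The epoxidase emOS168.62 also rose (1.67, SE 0.25), a call lost with median-ratio scaling. Abscisic acid 8'-hydroxylase 1 (emOS174.328), which breaks the hormone down, rose from 8.11, 9.3 and 11.78 to 107.49, 54.72 and 92.87 FPKM (2.96, SE 0.24, adjusted p = 1.28e-06). Downstream, the kinase SAPK4 (emFS4.383) rose from 16.73 to 23.18 FPKM to 157.89 to 221.47 FPKM, the factor bZIP23 (emOS36.470) from 8.84 to 12.59 to 66.08 to 67.23 FPKM, and abscisic stress-ripening protein 1 (emFS4.1021) from 2.68 to 3.59 to 136.7 to 223.91 FPKM, the last with a log2 fold change of 5.44 (SE 0.65).

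Genes of proline synthesis rose, and the gene of its breakdown did not pass the test. All 5 list members were tested, and 3 were higher and 0 lower, with or without 8 h replicate 1. In the main fit 6.97% of all genes were higher and 5.08% lower. The median of the list was 1.83, and 1.74 without 8 h replicate 1. Delta-1-pyrroline-5-carboxylate synthase 2 (emFS18.1840), the rate-limiting enzyme of synthesis from glutamate, stood at 45.34, 58.86 and 47.85 FPKM in the controls and at 638.82, 715.31 and 712.48 FPKM at 8 h. The 3 salt values were close together and the change was 3.75 on the log2 scale (SE 0.23, adjusted p = 1.66e-07). Ornithine aminotransferase (emOS43.53), which feeds the pathway from ornithine, went from 11.59, 13.81 and 9.75 to 161.31, 127.58 and 165.64 FPKM (3.59, SE 0.32), and pyrroline-5-carboxylate reductase (emFS4.906), the last step, from 49.93, 50.87 and 51.12 to 209.94, 166.46 and 175.69 FPKM (1.83, SE 0.28). The second synthase emFS1.987 had a log2 fold change of 0.81 (adjusted p = 0.0343), under the fold required, and proline dehydrogenase 2 (emOS55.1752) one of 0.49 (adjusted p = 0.189). Proline transporter 1 (emFS4.620) fell from 66.45 to 89.7 FPKM to 9.69 to 14.09 FPKM (-2.61, SE 0.26).

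In the list of trehalose, raffinose and inositol solutes 6 of 20 were higher and 1 lower, led by a trehalose-phosphate synthase (emOS86.206, 1.92 to 3.37 FPKM in the controls and 76.99, 95.73 and 136.71 at 8 h, log2 fold change 4.73, SE 0.45) and inositol-3-phosphate synthase (emOS55.55, 3.53, SE 0.53). Of 70 genes of sucrose metabolism and sugar transport 9 were higher (12.9%, against 6.97% of all genes) and 3 lower, with a median of 0.03. The lower count was 5 without 8 h replicate 1 and 9 without replicate 1 of both groups, with 9 higher in each. Sucrose synthase 4, which splits sucrose for use in the cell, is named for 3 neighbouring gene models (emOS55.1049, emOS55.1050 and emOS55.1051), and reads could be divided among such copies. Model emOS55.1051 rose from 17.77, 21.56 and 12.09 to 460.59, 446.21 and 380.8 FPKM, with little spread in either group (4.60, SE 0.23, adjusted p = 4.72e-08), and the other 2 models by 4.46 and 4.47. Cytosolic invertase 1 (emFS22.1148) rose by 4.53 (SE 0.42), and the bidirectional sugar transporter SWEET2b (emFS18.910) fell from 28.29 to 55.81 FPKM to 0.62 to 2.99 FPKM (-4.13, SE 0.41).

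Both enzymes particular to the glyoxylate cycle, which turns fatty acid carbon into sugar precursors, were among the 15 genes that rose most. Isocitrate lyase (emOS91.1199, chromosome 2) was listed at 0 in all 3 controls and at 96.82, 154.43 and 242.95 FPKM at 8 h (adjusted p = 4.21e-05). Malate synthase (emFS22.691, chromosome 6) rose from 0.69, 0.35 and 0.06 to 96.08, 142.9 and 148.34 FPKM (6.57, SE 0.83, adjusted p = 3.62e-05). An acyltransferase named for Arabidopsis At1g54570 (emOS91.573), a plastid enzyme that esterifies phytol from chlorophyll, rose from 0.26 to 0.73 FPKM to 133.01 to 168.53 FPKM (6.68, SE 0.74). Asparagine synthetase 1 (emOS55.752), whose product carries nitrogen out of leaves short of sugar, stood at 50.86, 1.69 and 0.78 FPKM in the controls and at 189.69, 230.41 and 1004.89 FPKM at 8 h, wide in both groups (5.82, SE 1.01, adjusted p = 0.000445). Plastid glutamine synthetase (emFS6.255), which takes up the ammonium of photorespiration, fell from 100.97 to 179.23 FPKM to 18.6 to 33.91 FPKM (-2.46, SE 0.44).

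Photosynthesis genes fell as a group, with the lowest median of the 37 lists. The summed level of the 59 list members was 83961, 70670 and 89093 FPKM in the controls and 6904, 8538 and 8228 FPKM at 8 h, a mean of 9.71% of the control sum. Of the 56 tested, 40 were lower (71.4%, against 5.08% of all genes), 1 was higher and 15 were neither, with a median log2 fold change of -2.84, and 38 were lower without 8 h replicate 1. Chlorophyll a-b binding protein 4 (emOS181.390), an antenna protein of photosystem I, stood at 2628.8, 2250.53 and 3128.58 FPKM in the controls and at 21.45, 39.05 and 63.05 FPKM at 8 h (-6.10, SE 0.40, adjusted p = 3.24e-07). The antenna proteins CP26 (emFS21.272) and CP24 (emFS22.919) of photosystem II fell from 1220 to 1666.25 FPKM to 5.75, 32.6 and 43.73 FPKM and from 679.95 to 1260.44 FPKM to 1.5, 27.97 and 28.29 FPKM. Photosystem I subunit O (emFS22.1267) fell from 2288.41 to 3409.9 FPKM to 12.71, 70.34 and 110.8 FPKM (-5.94, SE 0.81). In each of these 4 genes 8 h replicate 1 was the lowest library, and without it the log2 fold changes were -5.71, -5.26, -5.07 and -5.04. The 1 member that rose, a photosystem II 10 kDa polypeptide (emFS27.370), went from 1.9 to 3.73 FPKM to 17.19 to 36.76 FPKM.

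The photosynthesis members that bear names of proteins made in the plastid itself (D1, D2, CP43, CP47, the P700 apoproteins, protein K and Ycf4) gave no calls. None of these 11 gene models was a DEG, and their log2 fold changes lay between -0.87 and 0.36. Their median was -0.37, against 0.20 for all genes. Their summed level was 62.0, 31.7 and 41.2 FPKM in the controls and 42.4, 24.0 and 32.7 FPKM at 8 h. The other 45 tested members had a median of -3.28, with 40 lower. The levels of the 11 are low, 7 of them lie on nuclear chromosomes in the deposited table, and whether their reads come from plastid transcripts was not tested. This division of the list was made after its values were seen.

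**Figure D3:**
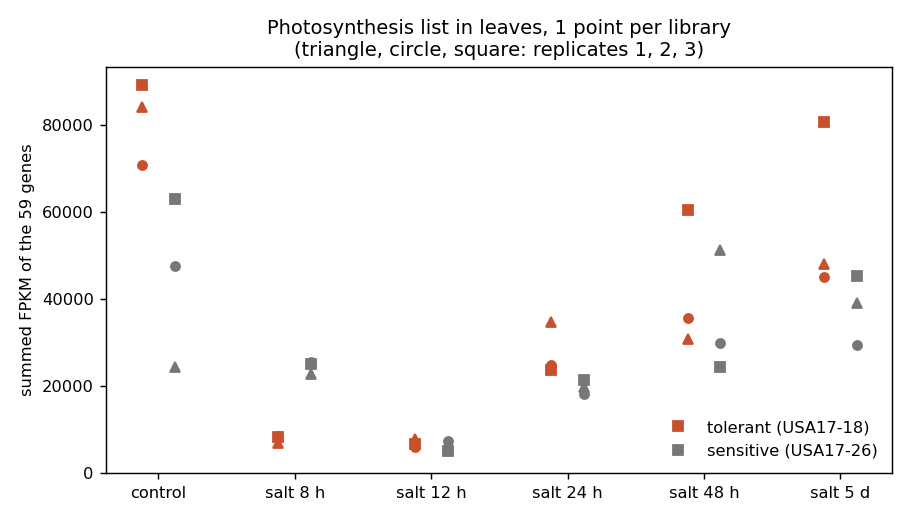
Summed FPKM of the 59 photosynthesis genes (y axis, from 0) in each leaf library by treatment and time (x axis), tolerant accession in orange and sensitive in grey, with the symbol giving the replicate. Tolerant leaves fall from 70670 to 89093 in the controls to 6904 to 8538 at 8 h, below the sensitive leaves of the same time at 22684 to 25574. At 12 h sensitive leaves lie at 5057 to 7376 and tolerant leaves at 5839 to 7882.

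Of 36 C4 and Calvin cycle genes tested 16 were lower (44.4%) and 3 higher (8.33%), against 5.08% and 6.97% of all genes, with a median of -1.10. The counts were the same without 8 h replicate 1. The Rubisco small chain A gene emFS24.383 (chromosome 3), the bundle sheath carboxylase's nuclear subunit, stood at 2851.2, 931.47 and 2040.61 FPKM in the controls and at 4.28, 22.45 and 40.98 FPKM at 8 h (-6.66, SE 0.90, adjusted p = 5.85e-05). Its neighbour of the same name, emFS24.382, fell by 4.57 on the log2 scale (SE 0.87), and reads may be shared between them. Plastid fructose-bisphosphate aldolase (emOS72.219), a Calvin cycle enzyme, fell from 147.71, 202.32 and 259.13 to 1.45, 1.52 and 1.46 FPKM (-6.33, SE 0.61). On the mesophyll side, phosphoenolpyruvate carboxylase 1 (emOS168.304) fell from 151.2, 191.43 and 281.39 to 19.81, 9.68 and 14.45 FPKM (-3.74, SE 0.51) and pyruvate, phosphate dikinase 1 (emFS9.94), which regenerates its substrate, from 1636.53, 3478.99 and 3667.46 to 259.52, 263.91 and 228.78 FPKM (-3.45, SE 0.53). Carbonic anhydrase emFS18.553 fell by 3.80 (SE 0.50). A second, less abundant model of that name, emFS18.556, rose from 10.57 to 22.81 FPKM to 46.4 to 69.24 FPKM (1.69, SE 0.48, adjusted p = 0.0128), a call lost with median-ratio scaling. The chloroplast malic enzyme model emFS26.254 was low and did not pass the test (-0.57, adjusted p = 0.708). A malic enzyme with no plastid in its name (emFS18.1165) rose from 6.85, 1.24 and 0.5 to 143.5, 123.54 and 134.04 FPKM (5.50, SE 0.63). The Rubisco large chain model emOS174.367 was low, at 1.52 to 3.57 FPKM in the controls, with a log2 fold change of -0.64 (adjusted p = 0.112).

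Ribosomal proteins of plastids and other organelles were lower in 26 of 74 cases (35.1%, against 5.08% of all genes) and higher in 0 (0 also without 8 h replicate 1, with 29 lower), with a median of -0.71. All 26 lower genes bear names of chloroplast ribosomal proteins, for example 30S protein S6 alpha (emOS99.160, 118.13 to 166.96 FPKM in the controls and 18.1 to 21.39 at 8 h, -2.75, SE 0.34). Among 188 proteins of the cytosolic ribosome 1 was higher and 0 were lower, while the median was -0.52. The 1 higher gene, emOS55.1000 (60S protein L10), rose from 0.46 to 13.62 FPKM to 92.92 to 137.94 FPKM. Histone and cyclin genes had 6 of 63 higher, 9.52% against 6.97% of all genes, among them histone H4 emOS91.869 (49.58 to 101.87 FPKM in the controls and 260.68 to 323.46 at 8 h), and their summed level was 2350 to 3221 FPKM in the controls and 5577 to 6781 FPKM at 8 h.

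Of 21 tested members of the senescence and chlorophyll list 6 were higher and 8 lower (28.6% and 38.1%, against 6.97% and 5.08% of all genes), with a median of -0.02. STAY-GREEN (emOS91.722), the magnesium-dechelatase that begins chlorophyll a breakdown, rose from 7.51, 10.07 and 4.49 to 277.45, 180.03 and 192.69 FPKM (4.73, SE 0.49, adjusted p = 7.39e-06). Pheophorbide a oxygenase (emOS80.82), which opens the ring, rose from 19.82, 33.62 and 26.65 to 592.57, 417.07 and 471.25 FPKM (4.17, SE 0.40). The chlorophyll b reductases NOL (emOS99.1419_emOS99.1420, 3.19, SE 0.40) and NYC1 (emFS24.734, 2.07, SE 0.40) and a pheophytinase (emFS18.524, 2.63, SE 0.37) rose as well. Other pheophytinase models fell, for example emFS9.15 from 19.33 to 20.29 FPKM to 3.47 to 5.53 FPKM, as did 2 of the cysteine proteases named SAG39, while another SAG39 model, emOS88.222, rose by 3.59 (SE 0.81). Starch genes were also mixed, with 7 of 37 higher (18.9%) and 5 lower (13.5%), where 6.97% and 5.08% of all genes were. Plastid beta-amylase 1 (emOS90.175) rose by 4.65 (SE 0.58), and the large subunit of glucose-1-phosphate adenylyltransferase (emOS99.939), the first committed step of starch synthesis, fell from 145.68 to 187.61 FPKM to 13.48 to 16.35 FPKM.

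Stress-related transcription factor families had more higher than lower members. NAC factors had 19 of 70 higher (27.1%, against 6.97% of all genes) and 1 lower, ERF and DREB factors 20 of 95 higher and 0 lower, and WRKY factors 17 of 79 higher and 1 lower, with medians of 0.64, 0.59 and 0.68. Without 8 h replicate 1 the higher counts were 19, 18 and 15, and with median-ratio scaling 16, 17 and 11. Among the NAC factors NAM-B1 (emOS101.35, chromosome 8), known from wheat as a promoter of senescence and nutrient export, rose from 0.67, 0.39 and 0.17 to 111.71, 110.71 and 186.91 FPKM (6.58, SE 0.41, adjusted p = 1.99e-07). Its relative NAM-B2 (emOS120.686) rose from 1.37 to 3.39 FPKM to 113.73 to 160.25 FPKM, and NAC factor 29 (emOS55.972) from 2.91 to 13.03 FPKM to 206.66 to 302.05 FPKM. HOX24 (emOS174.653, chromosome 4), a homeodomain-leucine zipper factor induced by drought in rice, rose from 4.67, 2.03 and 0.76 to 227.01, 291.9 and 453 FPKM (6.65, SE 0.39, adjusted p = 1.46e-07). Heat stress factor C-2b (emOS168.256) rose from 0.93 to 11.09 FPKM to 247.45 to 339.22 FPKM (5.98, SE 0.47). A dehydration-responsive element-binding factor (emFS4.1304) rose from 0.13 to 1.65 FPKM to 36.47 to 49.99 FPKM, and WRKY46 (emOS55.937) from 2.63 to 3.74 to 34.3 to 62.54 FPKM.

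Small heat shock proteins gave large but uneven changes. A pair of neighbouring models named 26.7 kDa plastid heat shock protein, emOS55.430 and emOS55.429 on chromosome 1, stood at 0 to 0.51 FPKM in the controls. At 8 h they stood at 714.43, 78.17 and 104.49 FPKM and at 446.52, 55.18 and 55.03 FPKM, with replicate 1 several times above the others. Their log2 fold changes were 7.20 and 6.55, and 6.21 and 5.55 without replicate 1. Both models share a name and may share reads. Over the list 8 of 53 were higher (15.1%) and 1 lower (1.89%), against 6.97% and 5.08% of all genes. Without that library the counts were 6 and 1, and the median of the list was 0.21 in the main fit, near that of all genes.

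Of 55 potassium and sodium transporters and channels 10 were higher and 0 lower, where all genes had shares of 6.97% and 5.08%, and 45 were neither. With replicate 1 of both groups left out, 8 were higher and 1 lower. Potassium transporter 1 (emFS22.1351) rose from 4.8, 8.89 and 6.61 to 97.94, 34.26 and 58.88 FPKM (2.97, SE 0.33), and the outward potassium channel models KOR1 (emOS49.192 and emOS49.193) by 2.61 and 2.39. HKT7 (emOS140.194), of the family that returns sodium from the xylem, rose from 3.99 to 9.75 FPKM to 24.19 to 55.96 FPKM (2.12, SE 0.48, adjusted p = 0.00312), a call lost without replicate 1 of both groups. The sodium/proton exchangers did not reach the fold required: exchanger 7 (emOS93.13), the type that exports sodium at the plasma membrane, stood at 40.25, 60.49 and 54.32 FPKM and at 106.34, 101.51 and 131.73 FPKM (1.13, SE 0.18, adjusted p = 0.000278), and exchanger 2 (emOS114.490) at 16.79 to 21.88 and 37.09 to 42.92 FPKM (1.06, adjusted p = 0.022). Plasma membrane ATPase 1 (emOS99.1241), a proton pump, rose from 13.26, 3.32 and 1.6 to 98.49, 114.55 and 88.03 FPKM (4.21, SE 0.59), and the vacuolar pyrophosphatase models emOS79.691 and emOS79.692 fell by 1.94 and 1.98. CBL-interacting kinases, which relay calcium signals to such transporters, led the calcium list of 77 genes (10 or 13.0% higher, 2 or 2.60% lower): kinase 6 (emOS181.439) rose from 0.74 to 11.04 FPKM to 78.29 to 101.08 FPKM (4.64, SE 0.50).

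Among jasmonate and ethylene genes 12 of 60 were higher and 1 lower (1.67%), where 6.97% and 5.08% of all genes were. The jasmonate repressors TIFY 11c (emOS130.47) and TIFY 11d (emOS158.8) rose from 2.58 to 7.11 FPKM to 83.93 to 121.17 FPKM and from 11.14 to 17 FPKM to 116.55 to 221.95 FPKM. An ethylene precursor synthase (emFS22.72) rose from 2.84, 2.5 and 3.96 to 131.61, 38.19 and 112.59 FPKM (4.37, SE 0.50). The 1 lower gene was lipoxygenase 2.3 (emOS79.796), a plastid enzyme of jasmonate synthesis, from 343.81 to 763.75 FPKM to 36.95 to 74.77 FPKM. Of 34 antioxidant genes 3 were higher (8.82%, near the 6.97% of all genes) and 5 lower (14.7%, against 5.08%). The cytosolic monodehydroascorbate reductase 4 (emOS173.88), which recycles ascorbate, rose by 2.42 (SE 0.24), and the plastid peroxiredoxins 2E-2 (emOS79.765) and Q (emFS4.1880_emFS4.1881) fell from 32.74 to 74.14 FPKM to 0.32 to 1.13 FPKM and from 150.1 to 251.65 FPKM to 14.1 to 22.32 FPKM. Catalase isozyme 3 (emOS79.123), which removes hydrogen peroxide, stood at 684.28 to 841.83 FPKM and at 1791.7 to 2045.11 FPKM, without overlap but short of the threshold (1.34, adjusted p = 0.119).

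**Figure D4:**
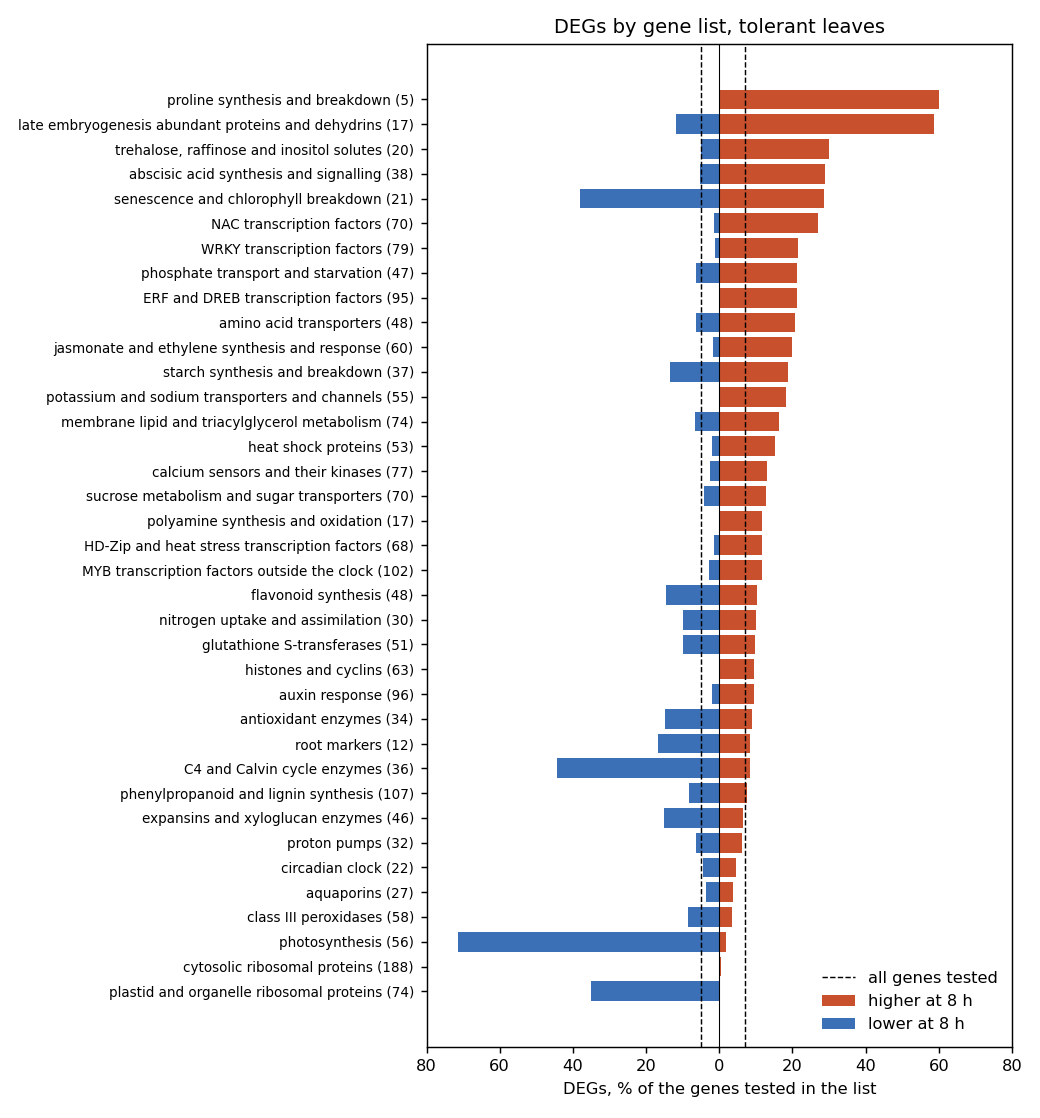
Share of the tested members of each of 37 gene lists (number tested in brackets) that were higher (orange, to the right) or lower (blue, to the left) after 8 h of salt in tolerant leaves, with dashed lines at the shares of all genes tested, 6.97% and 5.08%. Photosynthesis has the longest bar to the left at 71.4%, and the proline and late embryogenesis abundant lists the longest to the right, the latter at 58.8%.

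Among the genes that fell most were some outside metabolism. RAFTIN 1A (emFS12.590, chromosome 8, 38859833 to 38860857), named for a wheat anther protein, stood at 209.49, 444.6 and 320.49 FPKM in the controls and at 0, 0.13 and 0.06 FPKM at 8 h, the largest fall of the comparison among genes named by rule (-8.20, SE 0.37, adjusted p = 1.94e-08). The MYB-like factor TCL2 (emFS18.451), known in Arabidopsis as a repressor of leaf hairs, fell from 1319.77 to 1413.1 FPKM to 26.35 to 42.6 FPKM (-5.39, SE 0.68). RADIALIS-like 3 (emFS18.535), a small MYB-related factor, fell from 72.03 to 217.01 FPKM to 0.09 to 0.84 FPKM, and cationic peroxidase 1 (emFS4.2108) from 41.5 to 66.14 FPKM to 0 to 0.66 FPKM. Expansin-B3 models, of the wall-loosening family, fell in 3 neighbouring copies by 4.73, 4.67 and 4.21 (emOS55.1776, emOS55.1780 and emOS55.1779).

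The circadian clock list had 1 higher and 1 lower gene of 22 tested (4.55% each, near the 6.97% and 5.08% of all genes). It had 1 and 3 without 8 h replicate 1, and its median in the main fit was -0.34. REVEILLE 1 (emFS22.37), a clock output factor of Arabidopsis, rose from 6.88, 8 and 6.28 to 71.95, 130.95 and 85.73 FPKM (3.55, SE 0.26, adjusted p = 7.39e-07). REVEILLE 2 (emFS4.266) fell from 3.49, 8 and 11.05 to 2.1, 0.4 and 1.13 FPKM (-1.91, SE 0.38). Of the response regulator models named PRR95, emOS91.725 and emOS91.726 were lower in every salt library, at 188.07 to 225.08 against 457.38 to 731.39 FPKM for the first. Their log2 fold changes were -1.49 and -1.47, and passed the fold required without 8 h replicate 1. Another model of that name, emOS169.158, overlapped, at 70.38 to 110.98 FPKM in the controls and 70.72 to 79.62 FPKM at 8 h (-0.34, adjusted p = 0.254). CCA1 (emOS184.45), the morning factor, stood at 2 to 2.78 and 0.6 to 1.08 FPKM (-0.97, adjusted p = 0.0172). GIGANTEA (emFS24.430), an evening gene, stood at 342.56 to 492.93 and 401.61 to 418.12 FPKM (-0.05, adjusted p = 0.852). The values of the other clock members lay between -1.40 and 0.63. The part of time of day in these and the other results was not tested.

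Sensitive leaves at 8 h, compared with their own controls, had 371 DEGs of 22551 tested (1.65%), 292 higher (1.29%) and 79 lower (0.350%), and the libraries are not shared with the tolerant comparison. Of the 292 higher genes 259 (88.7%) were also higher in tolerant leaves, which is 17% of the tolerant genes that rose. Of the 79 lower genes 37 (46.8%) were also lower there, 3.33% of the tolerant genes that fell. A test of the difference itself found 921 genes (4.08% of 22551) whose response differed, 368 more positive (1.63%) and 553 more negative (2.45%) in tolerant leaves, and 225 and 639 with median-ratio scaling. Of the 1523 genes that rose in tolerant leaves 297 were among them, and of the 1110 that fell 512. Since the difference contains the same tolerant values, high shares here are built in. The total hung on single libraries: it was 555 without tolerant control replicate 3, 599 without sensitive 8 h replicate 1, 455 without sensitive control replicate 1 and 1850 without sensitive control replicate 3. It was 801 without tolerant 8 h replicate 1. The balance of directions was not stable either, at 1084 more positive and 766 more negative without sensitive control replicate 3 and at 509 and 499 with every library scaled to the same sum. With 1 library left out, the more positive count ran from 141 to 1084. The sensitive controls were wide for photosynthesis, with summed levels of 24268, 47601 and 62832 FPKM against 22684 to 25574 FPKM at 8 h.

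In the photosynthesis list 38 of 56 tested genes fell further in tolerant leaves at 8 h, where 2.45% of all genes did, and the medians were -2.84 and -0.42. At 12 h the accessions were close, with summed levels of this list of 5057 to 7376 FPKM in sensitive and 5839 to 7882 FPKM in tolerant leaves. In the C4 and Calvin cycle list 15 of 36 fell further in tolerant leaves at 8 h, and among organelle ribosomal proteins 22 of 75, against the same 2.45% of all genes. Subunit O of photosystem I stood at 685.46, 1572.96 and 2350.03 FPKM in sensitive controls and at 579.03, 658.87 and 663.23 FPKM at 8 h, a log2 fold change of -1.11 and a difference from tolerant leaves of -4.84 (SE 0.96, adjusted p = 0.00274, emFS22.1267). The late embryogenesis abundant list had 1 of 19 members with a differing response, where 4.08% of all genes had one. The group 3 protein emFS1.189 rose in sensitive leaves by 6.39 (0.41 to 1.77 and 50.42 to 488.04 FPKM), with a difference of -0.31 (adjusted p = 0.922), which does not show that the responses were alike. RCI2A rose by 7.39 there, with a difference of 0.59 (SE 1.03, adjusted p = 0.753). Delta-1-pyrroline-5-carboxylate synthase 2 rose by 2.17 in sensitive leaves, and the difference of 1.57 (SE 0.45, adjusted p = 0.0322) passed the test, close to the fold required. The sucrose synthase model emOS55.1051 rose by 1.96 there, with a difference of 2.64 (SE 0.67, adjusted p = 0.0152). Single differences can be read against the median difference over all genes tested, which was 0.26. Of the jasmonate and ethylene genes 5 of 63 had a more positive response in tolerant leaves, where 1.63% of all genes did. Among the 5 was the ethylene precursor synthase emFS22.72 (difference 3.63, SE 1.08, adjusted p = 0.0374).

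**Figure D5:**
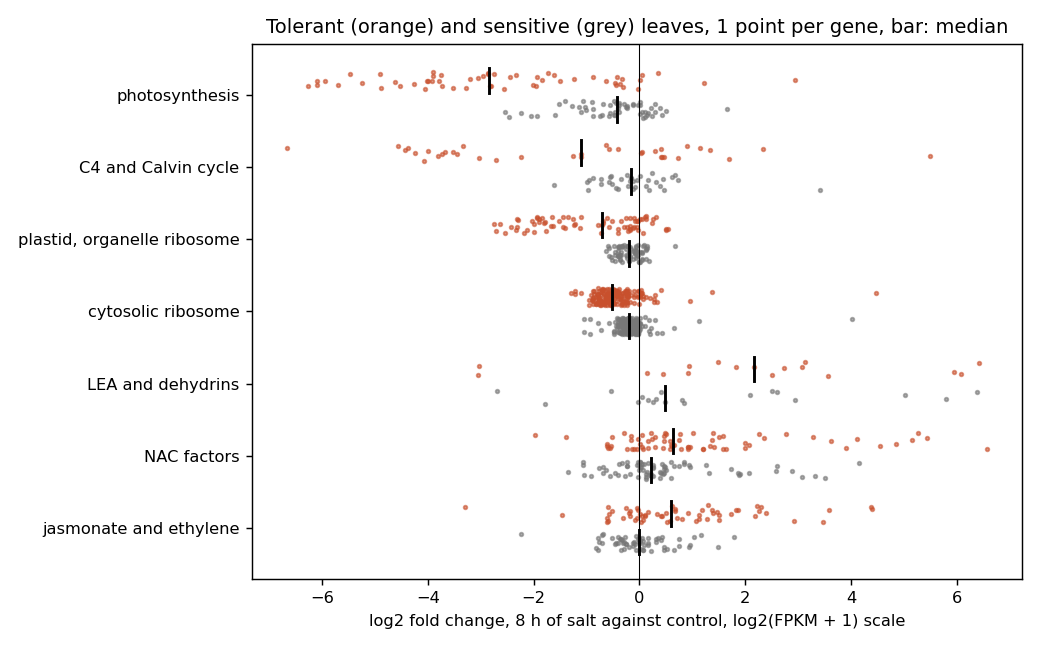
Log2 fold change at 8 h of salt against control on the log2(FPKM + 1) scale (x axis) of each tested member of 7 gene lists (y axis), 1 point per gene, tolerant leaves in orange and sensitive leaves in grey, with black bars at the medians. The medians of the photosynthesis list are -2.84 and -0.42. Those of the late embryogenesis abundant list are 2.16 over 17 members tested and 0.48 over 19, so they cover unlike sets. The median difference between accessions over the 19 is 0.47, against 0.26 over all genes tested.

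Read at the later times against the same 3 controls, some of these changes shrank and others did not, and values are given side by side because the comparisons share those controls. The 3 tolerant libraries of 12 h carried sensitive-type markers at 46% to 55.3% and tolerant-type markers at 25.9% to 55.6% of the leaf level, and the part of this in the 12 h values was not tested. The log2 fold changes of chlorophyll a-b binding protein 4 (emOS181.390) were -6.10 at 8 h, -10.22 at 12 h, -2.39 at 24 h, -1.05 at 48 h and -0.51 on day 5. Those of the Rubisco small chain emFS24.383 were -6.66, -5.46, -1.87, -0.68 and -0.04. The summed photosynthesis level was 5839 to 7882 FPKM at 12 h, 23588 to 34635 at 24 h, 30700 to 60254 at 48 h and 45043 to 80536 on day 5. Isocitrate lyase (emOS91.1199) stood at 270.74 to 635.38 FPKM at 12 h and at 0.05 to 8.69 FPKM on day 5, and malate synthase (emFS22.691) had values of 6.57, 8.15, 3.44, 2.90 and 0.96. Ornithine aminotransferase (emOS43.53) had 3.59, 3.60, 1.39, 1.07 and 0.48. RAFTIN 1A (emFS12.590) stayed at -8.20, -7.75, -7.26, -7.25 and -7.99, the group 3 protein emFS1.189 at 6.08, 4.76, 5.99, 6.16 and 5.63, and HOX24 (emOS174.653) at 6.65, 5.99, 8.23, 6.53 and 6.37. The synthase of the ethylene precursor, emFS22.72, had 4.37 at 8 h and 0.27, 1.11, 0.12 and -0.86 thereafter, and REVEILLE 1 (emFS22.37) 3.55 and 3.86 at 8 h and 12 h but -2.10, -1.60 and -1.66 from 24 h on. Other clock genes also stood far from the controls at 24 h, 48 h and day 5, CCA1 (emOS184.45) by 7.97, 7.61 and 7.71 and PRR1 (emOS174.810) by -4.79, -4.59 and -4.56, against -0.97 and -0.12 at 8 h. The part of time of day in the later values was not tested.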

How the data were processed

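RNA of leaves was sequenced by the authors on an Illumina HiSeq 2000. The submitters' processing notes name Trimmomatic 0.32 for trimming and HISAT2 2.1.0 for alignment. Genome build and strand setting: not given in the sources used here. FPKM values, deposited by the authors per gene model and library, were used for 27743 gene models, 18886 with a Swiss-Prot name and 26698 placed on 10 chromosomes. The methods name the unit RPKM. All 72 columns were assigned by their labels and 0 were left out. Read counts were not used here, and the study's own test on counts was therefore not run. The FPKM sum of a library (706310 to 774486 in the 6 libraries) is not its depth, and relative depth came from the smallest steps of 188 low genes.

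The 18 tolerant leaf libraries, 6 groups of 3, entered limma 3.58.1 (R 4.3.3) on log2(FPKM + 1), with a trend on mean level, two-sided tests and Benjamini-Hochberg adjustment over genes reaching 1 FPKM in 3 or more libraries. DEGs had an adjusted p of at most 0.05 and an absolute log2 fold change of at least 1.5, the thresholds of the study's methods. The difference between accessions and the sensitive comparison came from all 36 leaf libraries. Accession markers have a median of at least 5 FPKM in roots of one accession and under 0.2 FPKM in roots of the other. The code was tested on simulated data. The comparison, its members and the 37 gene lists, built from words in the gene names, were chosen with earlier results of these data known. Named genes are the 15 named DEGs with the largest change in each direction whose libraries do not overlap and that are DEGs without 8 h replicate 1, up to 4 DEGs per list and direction, all proline and clock genes, and others stated to be chosen later. Replicate numbers were not used to pair the samples in the main fit. The alternatives changed the pseudocount (0.1, 5), the filter (none, or a mean of 5 FPKM) and the scaling (median ratio, equal sums), or used a fold threshold of 1, other sets of libraries, no trend, library weights, a replicate block, and each library left out. Leaving out replicate 1 of both groups and leaving out the 12 h libraries were added after the data were seen. No sequences are shown, because no genome of the files' gene models was used here. Python 3.11.15, pandas and matplotlib made the tables and figures.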

Additional observations from a re-analysis of the deposited data

Results flagged for a closer look

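The test of the difference between accessions called 921 genes (4.08% of those tested) whose response to 8 h of salt differed in leaves. The difference contains the tolerant values by which the 30 genes named by rule for large changes were picked. A high share among these genes is therefore built in. Of the 30, 12 had a differing response. More negative in tolerant than in sensitive leaves, by the difference of the log2 fold changes, were Ribonuclease 3 (emOS91.763) at -7.48, RAFTIN 1A (emFS12.590) at -6.57, the Rubisco small chain emFS24.383 at -5.05, the MYB-like factor TCL2 (emFS18.451) at -5.04, photosystem I subunit O (emFS22.1267) at -4.84, photosystem I subunit psaK (emFS27.379) at -4.60, chlorophyll a-b binding protein CP26 (emFS21.272) at -4.57, chlorophyll a-b binding protein 4 (emOS181.390) at -4.50, cationic peroxidase 1 (emFS4.2108) at -4.09 and the light-harvesting type III protein emOS91.1370 at -3.15. More positive were the 26.7 kDa heat shock protein emOS55.429 at 6.0 and asparagine synthetase 1 (emOS55.752) at 5.52.

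Ribonuclease 3, an enzyme that degrades RNA, stood at 430.75, 303.73 and 286.5 FPKM in tolerant controls and at 12.71, 6.75 and 3.16 FPKM at 8 h. In sensitive leaves it stood at 225.01, 217.26 and 1752.97 FPKM in the controls and at 3702.58, 1222.08 and 1256.21 FPKM at 8 h, a log2 fold change of 2.01 that did not pass the test there. RAFTIN 1A was at 1.28 to 6.08 FPKM in the sensitive controls, far below the 209.49 to 444.6 FPKM of the tolerant ones.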

How the results depend on the processing

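The count of DEGs in tolerant leaves (2633, 1523 higher and 1110 lower) was 2326 to 2780 with 1 library left out, and 1978 genes were called in each of those fits. It was 1609 (891 and 718) with a pseudocount of 5 and 4392 (2613 and 1779) with a fold threshold of 1. Library weights gave 2287 higher genes, but their fit did not converge. The count of genes differing between accessions (921) was 603 with a pseudocount of 5, 1418 with a fold threshold of 1, 4058 with library weights and 455 to 1850 with 1 library left out. Without the 12 h libraries, which also carry sensitive-type markers, there were 2599 DEGs. Deviations from the group means correlated between same-numbered libraries with r = -0.498, -0.376 and -0.337, and none correlated best with its own number. With 3 libraries a group, and replicate 1 apart in both groups, such values cannot exclude pairing. With the replicate block 2605 and 933 genes passed, 2600 of the former among the 2633. Of 225 named DEGs 168 kept direction and call under every alternative run, 41 lost the call with a pseudocount of 5, and 0 reversed. Of 666 recomputed list counts 601 stayed within 1.5 times, and the 65 others were mostly counts under 8. The 6 others were heat shock genes, higher, with 14 at a pseudocount of 0.1 and 5 without control replicate 2 or 3 (8 in the main result), WRKY factors, higher, with 11 after median-ratio scaling (17), and phenylpropanoid genes, with 13 higher at a pseudocount of 0.1 (8) and 5 lower without replicate 1 of both groups (9). With 3 libraries a group and no counts, changes of genes near 1 FPKM are the least certain.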

Other observations

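In tolerant leaves at 8 h, several further lists had shares of higher genes close to the 6.97% of all genes. Glutathione S-transferases, which conjugate toxic products, had 5 of 51 higher and 5 lower (9.80% each, against 6.97% and 5.08%): the neighbouring models emFS18.850 and emFS18.851 rose from 1.84 to 5.34 FPKM to 102.57 to 131.9 FPKM and from 9.16 to 13.25 FPKM to 136.73 to 248.51 FPKM, and emOS99.596 fell from 47.94 to 115.18 FPKM to 3.3 to 13.5 FPKM. Flavonoid synthesis had 5 of 48 higher (10.4%) and 7 lower (14.6%), with chalcone synthase C2 (emFS15.122), the entry enzyme, at 44.21 to 83.51 FPKM in the controls and 0.54, 7.29 and 6.43 FPKM at 8 h, and dihydroflavonol 4-reductase (emOS164.147) rising from 0.61 to 1.14 FPKM to 16.18 to 21.22 FPKM. Auxin response genes had 9 of 96 higher (9.38%) and 2 lower (2.08%), led by IAA6 (emFS18.1150), an auxin repressor, from 1.48 to 3.48 FPKM to 51.04 to 98.69 FPKM.

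Phosphate genes had 10 of 47 higher (21.3%) and 3 lower (6.38%), against 6.97% and 5.08% of all genes, and 7 and 4 without 8 h replicate 1. In several of them that library stood highest: phosphate transporter 1-4 (emFS5.139) was at 60.29, 2.74 and 9.31 FPKM at 8 h, the phosphate sensor SPX domain protein 1 (emOS79.857) at 99.82, 10.56 and 24.04 FPKM. Among nitrogen genes, ferredoxin-nitrite reductase (emOS36.473) was at 412.51, 196.44 and 82.3 FPKM and the nitrate transporter partner emOS144.161 at 174.11, 29.66 and 39.17 FPKM, the latter not a DEG without that library. Phosphate and nitrogen supply were not tested.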
